A study of Mus musculus with 48 samples.

Results

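Lung RNA from 48 mice contained transcripts of heart muscle, and 10 genes of this kind are described here out of 47561 in the expression table: Myh6, Myl7, Myl4, Sln, Tnni3, Tnnt2, Actc1, Nppa, Ryr2 and Ttn. All 10 were found by their symbols. They were selected on their FPKM levels by strain, injection and air, with earlier results of the same table known. Their differences between these conditions are therefore given as descriptions without p values, and where a model across all genes called or did not call a member, nothing is read from it.

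The mice were adult males (M) and females (F) labelled C3H/hen (C3H) or C57Bl/6 (C57B). Each received a single intraperitoneal injection of saline (SAL) or of 25 mg/kg aurothioglucose (ATG), a gold drug that blocks the enzyme thioredoxin reductase. Each mouse then stayed for 96 h in room air (RA) or in hyperoxia (HYP), which was over 95% oxygen. Every combination of strain, sex, injection and air held 3 mice, which gave 16 groups, and each mouse had its own number from 1 to 48. No transgene or targeted gene was part of the design. A small piece of each lung was snap frozen for RNA, and how much of the large veins or airways a piece held is not stated. Levels are in FPKM, fragments per kilobase of transcript, which corrects for the length of the transcript and for the number of fragments mapped in the library.

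Heart muscle contracts by sliding thick filaments of myosin along thin filaments of actin, under the control of calcium released from the sarcoplasmic reticulum. Atrial and ventricular muscle use different myosin light chains and hormones, so that Myl7, Myl4, Sln and Nppa mark atrial muscle in the adult mouse, whereas Myl2 and Myl3 mark ventricular muscle. In mice, a sleeve of heart muscle with atrial features also surrounds the pulmonary veins and follows them into the lung. The smooth muscle of airways and arteries uses other genes, such as Acta2, Tagln and Myh11.

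In the GENCODE M21 annotation of mm10 (GRCm38), the members lie on 8 chromosomes and only Ttn and Actc1 (chromosome 2) and Myl7 and Myl4 (chromosome 11) share one. The cardiac alpha myosin heavy chain Myh6 (ENSMUSG00000040752) is at chr14:54941921-54966927 on the minus strand. The atrial regulatory light chain Myl7 (ENSMUSG00000020469) is at chr11:5896637-5898782, minus strand, and the atrial essential light chain Myl4 (ENSMUSG00000061086) at chr11:104550663-104595753, plus strand. Cardiac troponin I, Tnni3 (ENSMUSG00000035458), is at chr7:4518305-4524229, minus strand. Cardiac troponin T, Tnnt2 (ENSMUSG00000026414), is at chr1:135836354-135852260, plus strand. The cardiac actin gene Actc1 (ENSMUSG00000068614) is at chr2:114047282-114053548, minus strand. Sarcolipin, Sln (ENSMUSG00000042045), a small inhibitor of the calcium pump of the sarcoplasmic reticulum, is at chr9:53850164-53854560, plus strand. The cardiac calcium release channel Ryr2 (ENSMUSG00000021313) is at chr13:11553102-12106945, minus strand. Titin, Ttn (ENSMUSG00000051747), the giant spring of the sarcomere, is at chr2:76703980-76982547, minus strand. Atrial natriuretic peptide, Nppa (ENSMUSG00000041616), is at chr4:148000722-148002079, plus strand. All 10 are protein-coding genes.

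The promoters of the members are described next, and 3 are shown. RefSeq promoters (GRCm38.p6) were available for 9 of the 10 members, with 2 starts for Tnnt2, and the 150 bases before each start were searched on both strands. The motifs were the TATA box TATAAA, the TEAD site CATTCC, the GATA site written as AGATAA or TGATAA, the T-box site AGGTGT, the CArG box bound by serum response factor and the MEF2 box. The 3 windows below hold most of the matches, with matches in capitals and the start following the last base. The Myl7 window is chr11:5898783-5898932 (minus strand), that of Nppa is chr4:148000572-148000721 (plus strand) and that of Actc1 is chr2:114052876-114053025 (minus strand).
Myl7: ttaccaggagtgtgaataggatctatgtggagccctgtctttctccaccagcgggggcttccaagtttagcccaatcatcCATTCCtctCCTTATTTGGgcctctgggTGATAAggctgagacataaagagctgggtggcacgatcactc
Nppa: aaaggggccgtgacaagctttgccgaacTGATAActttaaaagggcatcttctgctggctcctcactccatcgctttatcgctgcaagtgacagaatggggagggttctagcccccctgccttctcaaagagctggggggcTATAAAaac
Actc1: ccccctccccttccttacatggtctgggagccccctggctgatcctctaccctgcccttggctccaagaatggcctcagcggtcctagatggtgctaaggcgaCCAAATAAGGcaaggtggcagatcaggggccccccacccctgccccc

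The Myl7 window held CATTCC 70 bases, a CArG box 61 bases and TGATAA 42 bases before the start. The Nppa window held TGATAA 122 bases and TATAAA 9 bases before the start, and the Actc1 window held a CArG box 47 bases before it. CATTCC was also found 27 bases before the upstream start of Tnnt2. A CArG box was thus present in 2 of 10 member windows, and in 0.916% of 32851 promoter windows of the same length. CATTCC was in 2 member windows (7.59% of all windows), the GATA site in 2 (9.65%), TATAAA in 1 (7.57%), AGGTGT in 0 (6.86%) and the MEF2 box in 0 (1.67%). These are matches of letters and were not tested as binding sites.

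Some reads could not be assigned to 1 gene with certainty. Of the 30-base sequences of Myh6 transcripts, 29.7% also occur in Myh7, the slow myosin heavy chain, and of those of Nppa, 56.9% lie in the antisense gene Gm13054. The levels of Myh6 and Nppa are therefore uncertain. Gm13054 itself was listed between 0 and 4.07 FPKM in room air (median 0.250) and between 0 and 3.52 in hyperoxia (median 0.270). For Tnni3 the share was 2.67%, all with the overlapping gene Dnaaf3, which stood at 1.21 to 5.73 FPKM in room air. The other 7 members shared at most 1.01% with any other transcripts, and Myl7 and Sln shared 0%.

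The tissue label was checked first. The alveolar and vascular markers Sftpc, Sftpb, Ager, Pecam1, Cdh5 and Cldn18 were present in all lungs, with a summed level of 25393 to 47423 FPKM in room air and 6439 to 22770 in hyperoxia. Several lungs stood apart. Mouse 27 (C3HF SAL RA) was among the 3 highest room-air lungs for 10 of 10 members and mouse 6 (C3HM ATG RA) for 9, whereas mouse 3 (C3HM SAL RA) was among the 3 lowest for 9 and mouse 38 (C57BF SAL RA) for 8. Mouse 37 (C57BF SAL RA) had a summed level of 14 skeletal muscle genes of 1345 FPKM, with Acta1 at 326, Tnnc2 at 180, Tnnt3 at 172, Pvalb at 150 and Mylpf at 128. Among the hyperoxia lungs, mouse 33 (C3HF SAL HYP) was among the 3 highest for 9 members. The fat cell gene Cfd stood at 107 FPKM in mouse 33. The total FPKM of a lung was between 510933 and 748290, and the absolute depth is unknown.

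The summed level of the 10 members ranged from 30.9 to 2056 FPKM in room air (median 277, and at most 679 without mice 27 and 6) and from 14.1 to 116 in hyperoxia (median 29.8). These sums were 0.00472% to 0.312% of a lung's total FPKM in room air and 0.00243% to 0.0208% in hyperoxia. In the 12 saline lungs in room air, the sums were 592, 277 and 30.9 in the 3 C3HM mice and 481, 38.6 and 2056 in the 3 C3HF mice. They were 277, 253 and 378 in the C57BM mice and 477, 33.6 and 373 in the C57BF mice. Each strain thus had both high and low lungs without any treatment. In these bulk samples, fewer cells of a type and less RNA per cell cannot be told apart.

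Levels per kilobase give an order of the members as listed. The places of Myh6 and Nppa in it are uncertain, since much of their sequence is shared with other genes. Places of members under 1 FPKM are uncertain too. In room air, the highest median was that of Myl7 (70.3 FPKM, range 2.02 to 459), followed by Actc1 (55.5, 11.8 to 300) and Myl4 (52.4, 2.64 to 621). Actc1 and Myl4 were not separated, since Actc1 was above Myl4 in 13 of 24 lungs, whereas Myl4 was above the next gene, Sln, in 24 of 24. Sln (26.1, 0 to 212), Tnni3 (23.7, 0 to 200) and Tnnt2 (20.6, 2.53 to 157) lay close together, with 14 of 24 lungs in the stated order at each step. Myh6 followed at 10.2 (0.0286 to 89.4) and was below Tnnt2 in 22 lungs. Ryr2 (0.437, 0.0113 to 2.82), Nppa (0.271, 0 to 20.8) and Ttn (0.150, 0.00815 to 2.14) were low and changed places between lungs. Ryr2 and Ttn reached 1 FPKM in 3 lungs each and Nppa in 7, and Nppa was listed at 0 in 11 of the 24.

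**Figure D1:**
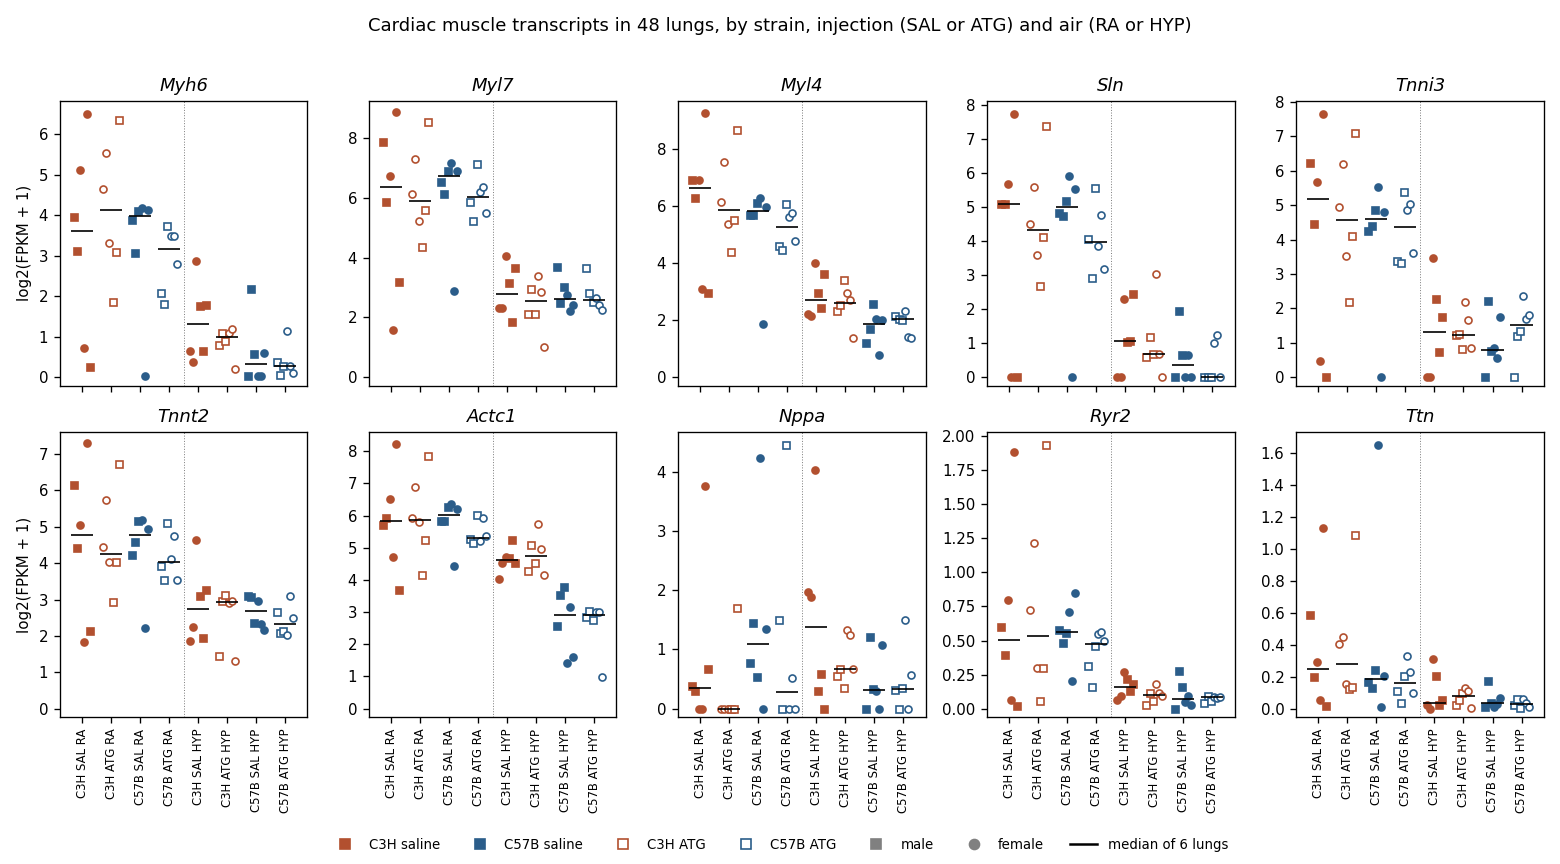
Each point is 1 lung, with log2(FPKM + 1) of 1 member on the vertical axis of each panel and the 8 combinations of strain, injection and air (6 lungs each, squares for males, circles for females, open for ATG, bar at the median) on the horizontal axis. For Myl7 the room-air lungs spread from 2.02 to 459 FPKM and the hyperoxia lungs from 1.02 to 15.5, whereas Nppa covers 0 to 20.8 in room air and 0 to 15.4 in hyperoxia.

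Among the myosin genes, Myl7 was at 2.02, 80.4 and 459 FPKM (lowest, median and highest of 6 lungs) in C3H SAL RA and at 6.41, 105 and 140 in C57B SAL RA. After ATG in room air the same 3 values were 19.3, 58.0 and 369 in C3H and 36.5, 64.2 and 138 in C57B. The ranges of both strains and of both injections overlapped, and the C3H ranges were wider. In hyperoxia, Myl7 was at 2.63, 5.94 and 15.5 in C3H SAL, 1.02, 4.79 and 9.54 in C3H ATG, 3.59, 5.14 and 12.0 in C57B SAL and 3.77, 4.99 and 11.5 in C57B ATG. No hyperoxia lung reached the room-air medians, but the 2 saline comparisons overlapped through low room-air lungs (mice 3 and 26 in C3H, mouse 38 in C57B).

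Its partner Myl4 spread as widely between lungs. It was at 6.80, 98.0 and 621 FPKM in C3H SAL RA and 2.64, 56.7 and 77.2 in C57B SAL RA, and at 19.9, 57.9 and 405 in C3H ATG RA and 20.9, 37.3 and 66.9 in C57B ATG RA. In hyperoxia it was at 3.47, 5.53 and 15.1 in C3H SAL and 1.63, 5.16 and 9.66 in C3H ATG, and at 0.728, 2.65 and 4.94 in C57B SAL and 1.62, 3.08 and 3.98 in C57B ATG. The highest C57B lung of any room-air group was below the median of C3H SAL RA. Myh6, the motor of the thick filament, was at 0.192, 11.1 and 89.4 in C3H SAL RA and 0.0286, 14.9 and 17.0 in C57B SAL RA. In hyperoxia its medians were 1.48 (C3H SAL), 1.00 (C3H ATG), 0.261 (C57B SAL) and 0.204 (C57B ATG), and its highest value was 6.34. Its lowest room-air lung, mouse 38, was as low as the lowest hyperoxia lungs.

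The thin filament genes differed from each other. Tnni3, the inhibitory troponin, was at 0, 35.2 and 200 FPKM in C3H SAL RA and 0, 23.3 and 45.5 in C57B SAL RA, and was at most 10.1 in hyperoxia, where 4 of 24 lungs were listed at 0. Tnnt2, which ties troponin to tropomyosin, was at 2.53, 26.4 and 157 in C3H SAL RA and 3.70, 26.3 and 35.4 in C57B SAL RA. Unlike Tnni3, Tnnt2 was not listed at 0 in any lung and kept a hyperoxia median of 4.97 (1.50 to 24.0). The ratio of Tnni3 to Tnnt2 had a median of 1.03 in room air and 0.307 in hyperoxia, with ranges that overlapped.

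Actc1, the main actin of heart muscle thin filaments, was the only one of the 10 members whose C57B lungs in room air and in hyperoxia did not overlap across both injections. In C57B it was at 20.7, 64.0 and 82.1 FPKM in SAL RA and 34.5, 38.9 and 64.4 in ATG RA, against 1.66, 6.45 and 12.7 in SAL HYP and 0.972, 6.58 and 7.27 in ATG HYP. All 12 C57B lungs in room air were above all 12 in hyperoxia. In C3H it was at 11.8, 55.8 and 300 in SAL RA and 16.6, 57.8 and 231 in ATG RA, against 15.5, 23.5 and 37.2 in SAL HYP and 16.7, 26.1 and 52.0 in ATG HYP, and these ranges overlapped. In hyperoxia the 12 C3H lungs (15.5 to 52.0) were therefore all above the 12 C57B lungs (0.972 to 12.7), while in room air the strains overlapped.

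Of the calcium genes, Sln was at 0, 33.2 and 212 FPKM in C3H SAL RA and 0, 31.4 and 59.4 in C57B SAL RA. In hyperoxia it was listed at 0 in 10 of 24 lungs and reached 7.23 in mouse 34 (C3HF ATG HYP). Ryr2 was low throughout, at 0.0113, 0.415 and 2.68 in C3H SAL RA and 0.150, 0.480 and 0.802 in C57B SAL RA, and at most 0.209 in hyperoxia. Ttn was at 0.0112, 0.187 and 1.20 in C3H SAL RA and 0.00815, 0.138 and 2.14 in C57B SAL RA, where the value of 2.14 was that of mouse 37, the lung with skeletal muscle transcripts, a tissue that also expresses titin. Without that lung the highest C57B SAL RA value of Ttn was 0.182. Ttn was at most 0.243 in hyperoxia.

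Nppa, a hormone released by atrial muscle, differed little between room air and hyperoxia. It was at 0, 0.271 and 12.6 FPKM in C3H SAL RA and 0, 1.13 and 17.7 in C57B SAL RA, and at 0, 0 and 2.23 in C3H ATG RA and 0, 0.215 and 20.8 in C57B ATG RA. In hyperoxia it was at 0, 1.60 and 15.4 in C3H SAL and 0.273, 0.589 and 1.52 in C3H ATG, and at 0, 0.242 and 1.30 in C57B SAL and 0, 0.255 and 1.83 in C57B ATG. Single lungs made the maxima, namely mouse 27, mouse 37, mouse 18 (C57BM ATG RA) and mouse 33. Mouse 6, whose Myl7 was 369, had an Nppa level of 2.23, and mouse 29 (C3HF ATG RA), whose Myl7 was 156, was listed at 0.

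The members rose and fell together between lungs of the same group. Correlations were computed between the members' deviations of log2(FPKM + 1) from their group means, over the 24 room-air lungs, as descriptions. Each pair shares its lungs, libraries and scaling. The median over 45 pairs was 0.890 (0.582 to 0.989), the median over the 36 pairs without Nppa was 0.940, and that over the 9 pairs with Nppa was 0.611. Over the 24 hyperoxia lungs, where most levels were low, the median was 0.598 (0.160 to 0.900), with 0.608 over pairs without Nppa and 0.580 over pairs with it. There Actc1 stood apart, with correlations of 0.16 with Tnnt2, 0.17 with Myl7 and 0.18 with Myl4, and of at most 0.59 with any member (Sln), whereas in room air those 3 values were 0.95, 0.93 and 0.96. Nppa, by contrast, was at 0.82 with Myh6 in hyperoxia and at 0.60 in room air.

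**Figure D2:**
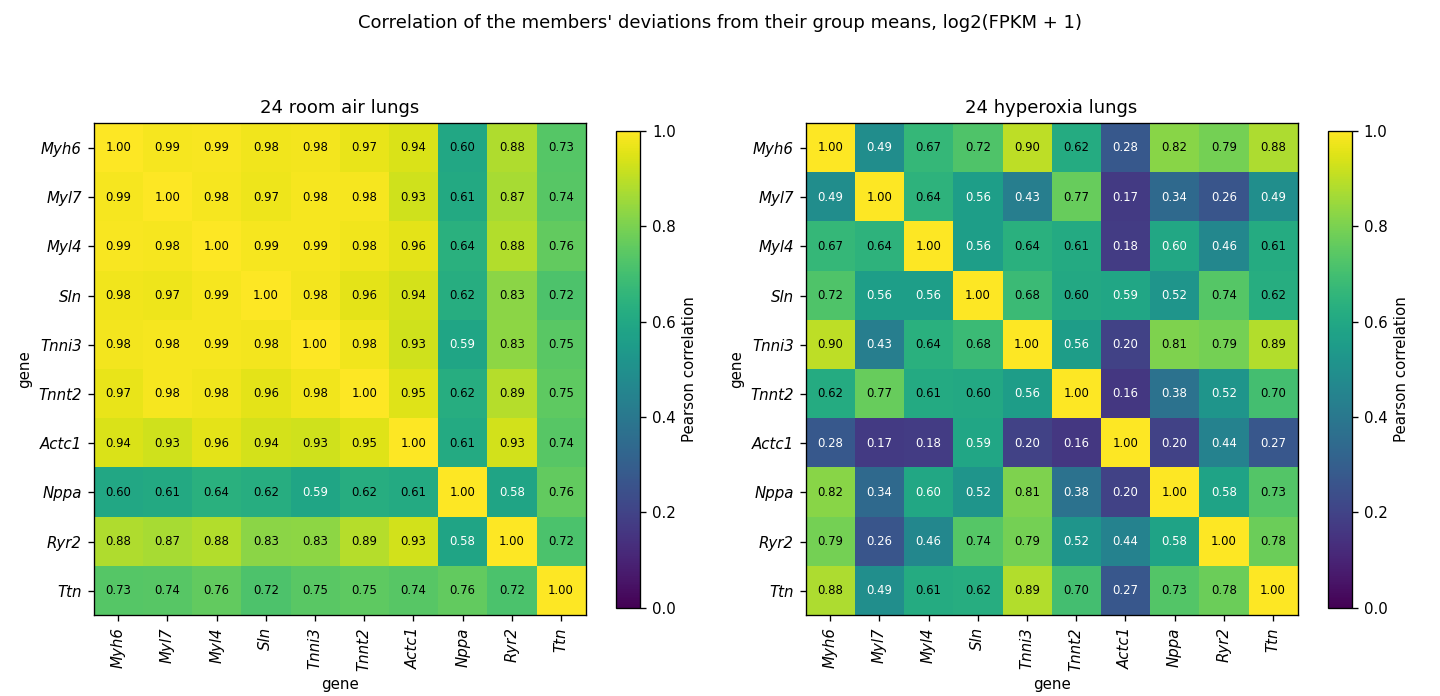
Pearson correlations between pairs of the 10 members, computed from deviations of log2(FPKM + 1) from the means of the 16 groups, in 24 room-air lungs and 24 hyperoxia lungs (color scale, no unit). In room air the pairs without Nppa lie around a median of 0.940 and those with Nppa around 0.611, and in hyperoxia the median of all pairs is 0.598.

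The spread between replicates was compared with the group differences for each member. Over the 48 lungs, the share between the 16 groups was 75.3% of the summed squares of log2(FPKM + 1) of Actc1, 71.1% of Myl4, 64.9% of Myl7, 60.9% of Myh6 and 60.2% of Sln. For 16 groups of 3 lungs, a share of 31.9% is reached on average with no group effect, and the share of Ttn was close to that value. The others were 53.1% for Tnni3, 45.6% for Tnnt2, 44.5% for Ryr2, 39.6% for Nppa and 32.1% for Ttn. The members' median of 56.6% compares with 64.3% over the 16994 genes that reached 1 FPKM in 3 or more lungs, as all 10 members did. Air alone accounted for 64.3% in Myl4 and 63.0% in Myl7, but for 0.191% in Nppa. Strain accounted for 13.95% in Actc1 and for at most 4.35% in the other members.

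The spread within groups was wide. In room air the pooled SD of log2(FPKM + 1) within groups of 3 was 2.37 for Sln, 2.32 for Tnni3, 2.00 for Myl7, 1.86 for Myl4, 1.82 for Myh6, 1.59 for Tnnt2, 1.40 for Nppa and 1.13 for Actc1, and 0.54 for Ryr2 and 0.44 for Ttn. The members' median SD was 1.71, while the median over all genes was 0.26. In hyperoxia the members' SDs were between 0.07 and 0.96.

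**Figure D3:**
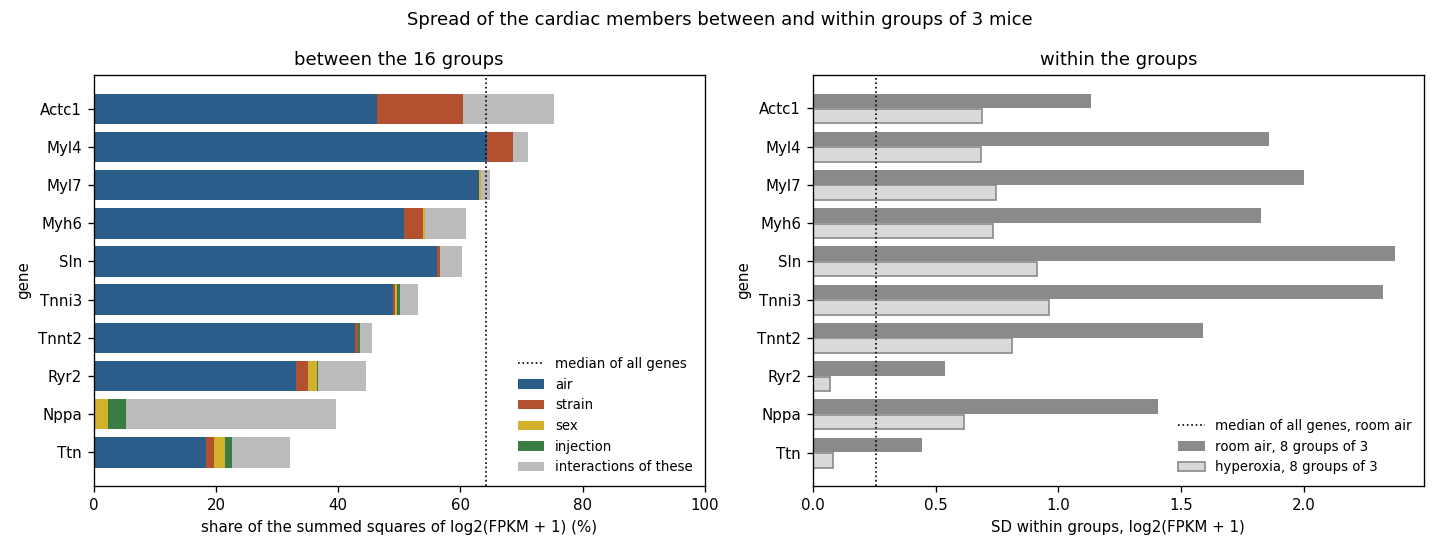
On the left, the share of the summed squares of log2(FPKM + 1) that lies between the 16 groups (percent), split into air, strain, sex, injection and their interactions, and on the right the SD within groups of 3 mice in room air and in hyperoxia, with dotted lines at the median of all genes. Actc1 has the highest share at 75.3% and Ttn the lowest at 32.1%, and the room-air SD of Sln, 2.37, lies far above the median over all genes, 0.26.

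For the air comparison, the 12 hyperoxia and 12 room-air mice given saline were fitted with limma across 16321 genes, of which 60.1% passed an adjusted p of 0.05 and 28.3% did so with lower levels in hyperoxia. Of the 8 members tested, 7 were lower and Nppa was not called, while Ryr2 and Ttn were too low to be tested. Because air was part of how the members were chosen, nothing is read from this count. The log2 differences were -3.31 (SE 0.81) for Sln, -3.28 (0.62) for Myl4, -3.05 (0.68) for Myl7, -2.83 (0.81) for Tnni3, -2.29 (0.61) for Myh6, -2.16 (0.36) for Actc1, -1.68 (0.55) for Tnnt2 and -0.15 (0.45) for Nppa. On this scale of log2(FPKM + 1) the change of low genes is understated. The members' median difference was -2.56 and that of all genes 0.01. Without mice 27 and 37, the differences of the 7 were smaller, from -2.73 for Myl4 to -1.22 for Tnnt2, and that of Nppa was 0.46.

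The overlap of room air and hyperoxia was counted for each strain and injection, and differences between these counts were not tested. Over all 48 lungs, 0 of 10 members had every room-air lung above every hyperoxia lung, and 1.03% of all genes did. As a description, in C57B ATG lungs 8 of 10 members did (all except Nppa and Ttn), against 14.0% of all genes, and in C3H ATG lungs 3 did (Myh6, Myl7 and Myl4), against 9.28%. Among saline lungs the count was 1 in C57B (Actc1), against 16.8% of all genes, and 0 in C3H, against 4.33%. The saline groups held 3 low room-air lungs, mice 3, 26 and 38, with summed levels of 30.9, 38.6 and 33.6. Counts without them were not made. In C3H saline lungs, 3 of 6 room-air lungs were above all hyperoxia lungs for Tnnt2, 2 for Ttn and 0 for Nppa. Among the ATG lungs the lowest summed level of the members in room air was 74.3 in C3H and 121 in C57B.

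Other genes of heart muscle were followed through 47 genes that are not members. Of these, 37 were tested for hyperoxia, and 21 were lower, 2 were higher and 14 did not pass the test. The 23 called are 62.2% of those tested, close to the 60.1% of all genes, and 56.8% were lower, against 28.3% of all genes, while 31.8% of all genes were higher. Of the 37, 14 reached the minimum of 1 FPKM in 3 mice through room-air lungs alone, and 12 of the 21 lower genes were among them. Such genes were kept because they were high in room air, so that their differences are given without p values and their calls are not counted as support. Among the other 23, 9 were lower and 2 were higher. Of these 2, Nppb was kept through hyperoxia lungs alone, and its call is not counted as support either. These genes were listed with earlier results known, and many correlate with the members, so that the counts are not independent of them. Adjusted p values below are from limma with Benjamini-Hochberg adjustment, and the FPKM given beside these differences are the lowest, median and highest of the 12 saline lungs in each air.

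In the sarcomere and Z disc, 8 of 13 tested genes were lower in hyperoxia. Tcap, which anchors titin at the Z disc, was at 0.231, 14.8 and 160 FPKM in the room-air saline lungs and 0, 0.423 and 4.90 in hyperoxia (log2 difference -3.08, SE 0.60, adjusted p = 0.000193). The others were Csrp3 (-1.85), Tnnc1 (cardiac troponin C, -1.75), Myoz2 (-1.66), Actn2 (the Z disc actinin, -1.40), Ldb3 (-1.32), Smyd1 (-1.23) and Mybpc3 (cardiac myosin binding protein C, -0.78), of which Actn2, Ldb3, Smyd1 and Mybpc3 were kept through room-air lungs alone. Of the 8, Csrp3, Myoz2 and Tnnc1 no longer passed without mice 27 and 37, with adjusted p = 0.164, 0.0568 and 0.0817 by limma. Csrp3 lost its call in 20 of 29 alternatives, most of which left out 1 mouse (adjusted p = 0.0924 by limma without mouse 27). Nebl, at 26.4 to 50.1 FPKM in the saline lungs in room air and 21.5 to 62.4 in hyperoxia, did not pass the test.

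Among calcium genes, 5 of 9 were lower, namely Pln (phospholamban, -1.44, adjusted p = 0.0069), Hrc (-1.31), Casq2 (cardiac calsequestrin, -1.29), Srl (-1.18) and Trdn (-0.60), all but Pln kept through room-air lungs alone. The calcium pump Atp2a2, at 24.7 to 177 FPKM in the saline lungs in room air and 42.5 to 93.1 in hyperoxia, and the channel Cacna1c did not pass, and both are expressed by many other cell types. In energy supply, 5 of 6 were lower and 1 was higher. Mb, which encodes the oxygen store myoglobin, was at 0.225, 22.9 and 233 in room air and 0, 0.407 and 3.91 in hyperoxia (-3.40, SE 0.73), and Cox8b (-2.41), Cox7a1 (-2.19), Ckmt2 (-2.08) and Fabp3 (-0.78) were lower too, with Mb, Ckmt2 and Fabp3 kept through room-air lungs alone. Cox6a2 was higher, at 9.46, 30.5 and 81.3 in the saline lungs in room air and 27.3, 65.9 and 106 in hyperoxia (1.14, SE 0.23, adjusted p = 0.000214). Cox6a2, Cox7a1 and Cox8b all encode muscle forms of cytochrome c oxidase subunits, and thus did not move in 1 direction.

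Of the heart transcription and splicing factors, Tbx5 alone of 3 tested was lower (-0.54, adjusted p = 0.000208), and over all 24 room-air lungs it stood at 6.19 to 12.4 FPKM, also in lungs in which Myl7 was low. Nkx2-5, a defining factor of heart muscle, was at most 3.15 FPKM, in mouse 27. Of the atrial and pulmonary vein genes, 2 of 6 were lower and 1 was higher. Mybphl, an atrial myosin binding protein, was at 0, 4.62 and 41.5 in room air and 0, 0 and 0.306 in hyperoxia (-2.18, SE 0.46), and was kept through room-air lungs alone. Gja5, the gap junction protein of atrial muscle and of arterial endothelium, was at 17.6, 24.4 and 39.9 in the saline lungs in room air and 4.03, 15.0 and 29.6 in hyperoxia (-0.92, SE 0.13, adjusted p = 4.3e-06). The natriuretic peptide Nppb was higher, at 0, 0.149 and 3.01 in room air and 1.18, 5.59 and 63.9 in hyperoxia (2.49, SE 0.22), and was kept through hyperoxia lungs alone. The highest Nppb value was that of mouse 33, which also had the highest Nppa in hyperoxia.

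Myl4 and Myl7 can be compared within a lung, because both are light chains of the atrial myosin. The ratio of Myl4 to Myl7 was 0.521 to 3.78 (median 1.10) in the 12 C3H lungs in room air and 0.412 to 0.751 (median 0.563) in the 12 C57B lungs. It was 0.705 to 2.88 (median 0.959) in C3H and 0.109 to 0.760 (median 0.505) in C57B in hyperoxia. In both airs the C3H median was above every C57B value, although the ranges overlapped through mouse 1 in room air (0.521) and through mice 34 and 11 in hyperoxia (0.705 and 0.720). Whether both transcripts came from the same cells was not tested.

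**Figure D4:**
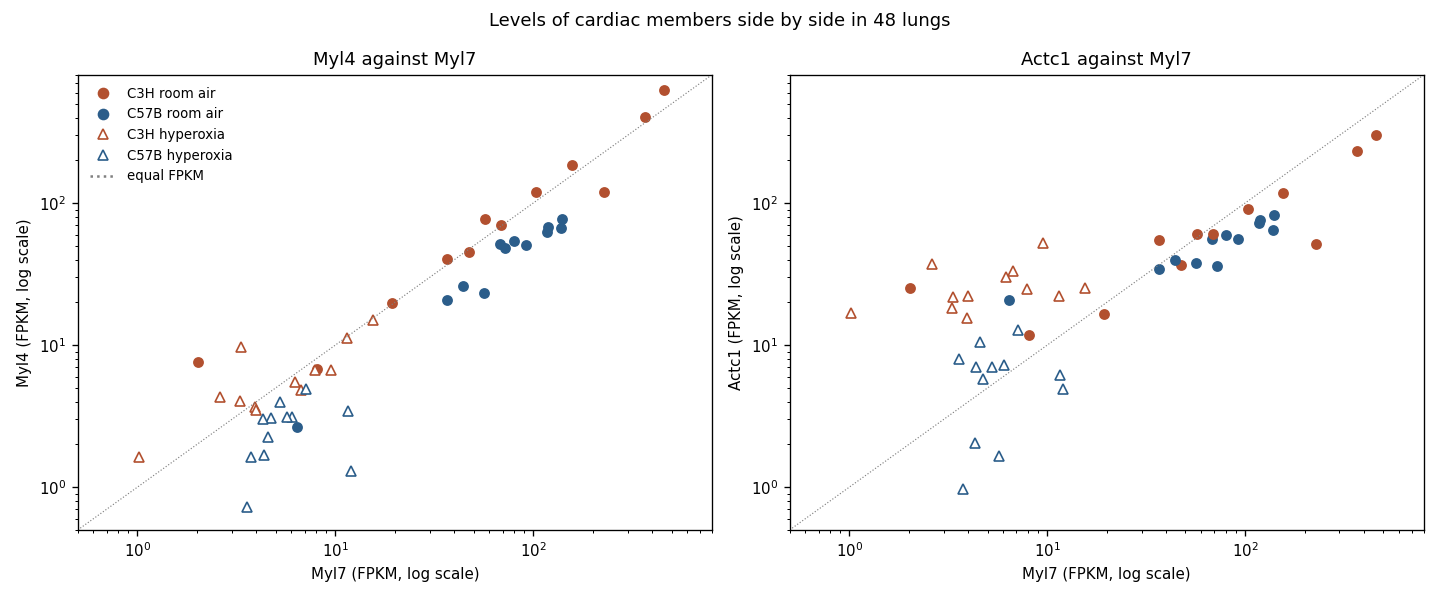
FPKM of Myl4 (left) and of Actc1 (right) against FPKM of Myl7 in the 48 lungs, on log axes, with color for strain, filled circles for room air, open triangles for hyperoxia and a dotted line at equal FPKM. Most C57B lungs lie below the C3H lungs in Myl4 for a given Myl7 (median ratio 0.563 against 1.10 in room air), and in hyperoxia Actc1 is 15.5 to 52.0 in C3H and 0.972 to 12.7 in C57B.

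For strain, the 6 C3H and 6 C57B mice given saline in room air were fitted across 15546 genes, of which 11.8% were called (609 higher in C3H and 1223 lower, or 940 and 977 after median ratio scaling). Strain was part of how the members were chosen, so that nothing is read from the 0 of 8 members that were called. Their median log2 difference was 0.01, against -0.10 for all genes. The differences, C3H minus C57B, ran from -0.54 (SE 0.75) for Nppa to 0.64 (SE 1.07) for Myl4, and the sign rested on single mice. When 1 mouse was left out, Myl4 ran from -0.07 to 1.47, Myl7 from -1.19 to 0.63 and Myh6 from -0.64 to 0.89. Without a model, 0 of 10 members had strains that did not overlap among the 24 room-air lungs, against 2.95% of all genes in either direction. In hyperoxia 1 of 10 did, Actc1, higher in C3H, against 2.26% of all genes. As a description, the hyperoxia difference of Actc1 was -1.17 in C3H and -3.14 in C57B, which lie 1.97 (SE 0.71) apart. By limma, 1880 of 16321 genes were called for such a difference between the strains. Actc1 was not called, and nothing is read from that, since strain and air were part of how the members were chosen. Of the other heart genes, 1 of 34 tested was higher in C3H, against 3.92% of all genes. It was Gja5, at 32.6 ± 6.86 FPKM (SD, n = 6) in C3H and 20.8 ± 3.25 (SD, n = 6) in C57B (log2 difference 0.61, SE 0.16, limma adjusted p = 0.0247). The call was lost, with adjusted p up to 0.0653 in limma, when mouse 3, 13, 14, 25, 26 or 37 was left out.

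For injection, ATG and saline were compared in the 24 room-air mice, across 16228 genes, of which 0.0185% were called. Injection too was part of how the members were chosen, and nothing is read from the 0 of 10 members that were called. They had a median log2 difference of 0.07, against 0.01 for all genes. The differences, ATG minus saline, ran from -0.44 (SE 0.52) for Nppa to 0.45 (SE 0.85) for Tnni3, and that of Tnni3 was -0.07 to 0.83 when 1 mouse was left out. Of the other heart genes 0 of 40 were called. By limma, 1077 of all genes had an unadjusted p under 0.05. None of the 10 members had injections that did not overlap in room air, and 0.00616% of all genes did. The comparisons of strain, sex, air and injection all use the same 12 saline room-air mice.

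Sex was not part of how the members were chosen, and was tested in the same 12 mice. By limma, 0 of 8 members differed between males and females, with 0.669% of 15546 genes called and 3617 genes at an unadjusted p under 0.05. The log2 differences, males minus females, were -0.87 for Nppa (SE 0.75, adjusted p = 0.49), -0.54 for Actc1 (0.58, 0.58) and -0.38 for Myh6 (1.03, 0.84). They were 0.39 for Myl7 (SE 1.19, adjusted p = 0.86), 0.04 for Myl4 (1.07, 0.99), 0.03 for Tnnt2 (0.91, 0.99), 0.01 for Sln (1.42, 1.00) and 0.01 for Tnni3 (1.37, 1.00). The SEs were 0.58 to 1.42 on the log2 scale. After adjustment over all genes a call requires a difference of several SEs, so that differences well above these errors could also be missed. The sexes overlapped in 10 of 10 members in room air, and 0.0739% of all genes did not overlap.

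Ventricular markers were examined beside the members. Of 6 ventricular genes, Irx4 was listed at 0 in 47 of 48 lungs and Myl2, the ventricular regulatory light chain, in 37 of 48. The highest Myl2 value was 5.87 FPKM, in mouse 27, where its atrial counterpart Myl7 was 459. Myl3, the essential light chain of ventricular and slow muscle, followed the members, at 0 to 88.5 in room air, with a hyperoxia difference of -2.36 (SE 0.53), and was kept for that fit through room-air lungs alone. The ratio of Myl3 to Myl4 was at most 0.166 in room air and at most 0.230 in hyperoxia (median 0). Myh7 was at 7.73 ± 2.22 FPKM (SD, n = 6) in C3H and 4.02 ± 1.42 (SD, n = 6) in C57B saline room-air lungs (0.80, SE 0.18, limma adjusted p = 0.0141), and was not called in hyperoxia (-0.28, adjusted p = 0.104). Hey2, kept in the same way, had a hyperoxia difference of -0.54. The summed level of the ventricular list was 7.73 to 106 in room air and 2.57 to 12.3 in hyperoxia. Among atrial genes, Bmp10, which marks the right atrium in the adult, was listed at 0 in 46 of 48 lungs, and Kcnj3, an atrial potassium channel, was at most 4.08. Of the sinus node genes, Tbx3 alone was tested and was lower in hyperoxia (-0.93, adjusted p = 8e-08), and its 5-gene sum was 13.2 to 38.4 in room air and 6.47 to 20.3 in hyperoxia.

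Other tissues that a piece of lung could hold moved with the members to different degrees, and their part in the results was not tested. Skeletal muscle genes summed to 5.46 to 1345 FPKM in room air (median 8.65, and at most 26.3 without mouse 37) and to 1.29 to 7.30 in hyperoxia, where Mylpf (kept through room-air lungs alone) and Tnni2 of 6 tested were lower, with Tnni2 at 1.09 to 103 over all room-air lungs and 0 to 1.91 over all hyperoxia lungs. Of the smooth muscle genes, 5 of 10 were higher in hyperoxia (Tagln by 1.08, Actg2 by 0.79, Acta2 by 0.77, Des by 0.38 and Smtn by 0.22) and 2 were lower (Synpo2, -0.71, and Mylk, -0.66), against 31.8% higher and 28.3% lower over all genes. Their sums were 238 to 454 in room air and 322 to 750 in hyperoxia. Fat cell genes summed to 6.32 to 96.1 in room air and 0.206 to 145 in hyperoxia, with 1 of 5 lower. Mesothelial genes summed to 91.2 to 367 and 58.5 to 206, with 2 of 5 lower.

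Airway and blood genes were lower in hyperoxia as well. The summed level of 4 airway epithelial genes was 58124 to 230705 FPKM in room air and 6946 to 43481 in hyperoxia, with 3 of 4 lower (Scgb1a1, the club cell secretory protein, with a log2 difference of -2.55). Of the airway cartilage list only Chad was tested, and it was lower (-2.63, adjusted p = 4.65e-08 by limma). The other 4 genes of that list were at most 0.400 FPKM, so that Chad is not read as a measure of cartilage here. Blood genes (2 globins, with Alas2 listed at 0) summed to 2475 to 58484 in room air and 256 to 1678 in hyperoxia, and 2 of 2 tested were lower. The 0 of Alas2 in all 48 lungs is not read as absent expression. Thymus genes summed to at most 10.4 and oesophageal genes to at most 1.15, and the list of autonomic neurons, in which Th was listed at 0 in all lungs, to at most 1.18.

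The members' sum was ranked against these list sums over lungs as a description, since the lungs share the scaling of each library and differ in treatment. Within the 24 room-air lungs, Spearman's rho was 0.96 with the sarcomere list, 0.94 with energy supply, 0.68 with ventricular genes, 0.58 with skeletal muscle, 0.46 with fat, 0.24 with smooth muscle, 0.23 with airway epithelium, 0.19 with airway cartilage, 0.19 with globins and -0.04 with mesothelium. Over all 48 lungs, the values for airway epithelium (0.81), the airway cartilage list (0.77) and globins (0.71) were higher than within room air. The values of the airway cartilage list are in effect those of Chad. Of the other heart lists, rho in room air was 0.78 with calcium handling, 0.50 with transcription and splicing factors, 0.48 with the atrial and pulmonary vein list and -0.28 with the sinus node list. In hyperoxia, rho was 0.74 with the atrial, 0.68 with the ventricular, 0.66 with the sinus node and 0.63 with the sarcomere list. It was 0.16 with transcription and splicing factors, -0.33 with calcium handling and -0.52 with energy supply. Airway epithelium stood at 0.54, skeletal muscle at 0.50 and the airway cartilage list at 0.43. Fat stood at 0.23, globins at 0.13, smooth muscle at 0.02 and mesothelium at -0.03. Single genes were a large part of these heart sums. The hyperoxia median of Cox6a2 was 65.9 FPKM beside 76.1 for energy supply, and that of Atp2a2 62.8 beside 79.5 for calcium handling. That of Nebl was 51.8 beside 62.4 for the sarcomere list, and that of Myh7 3.47 beside 5.09 for the ventricular list. Gja5 stood at 14.0 beside 23.6 for the atrial list, and Tbx3 at 10.9 beside 11.4 for the sinus node list. Strains also differed, with hyperoxia medians of 52.2 (C3H) and 22.8 (C57B) for the members and 53.1 and 100 for energy supply. For the atrial list they were 36.0 and 16.3. No correlation was computed without these genes or within a strain. The values are therefore not read as those of the other genes of a list. The rho with the relative depth of the libraries was 0.05 in room air and -0.24 in hyperoxia.

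**Figure D5:**
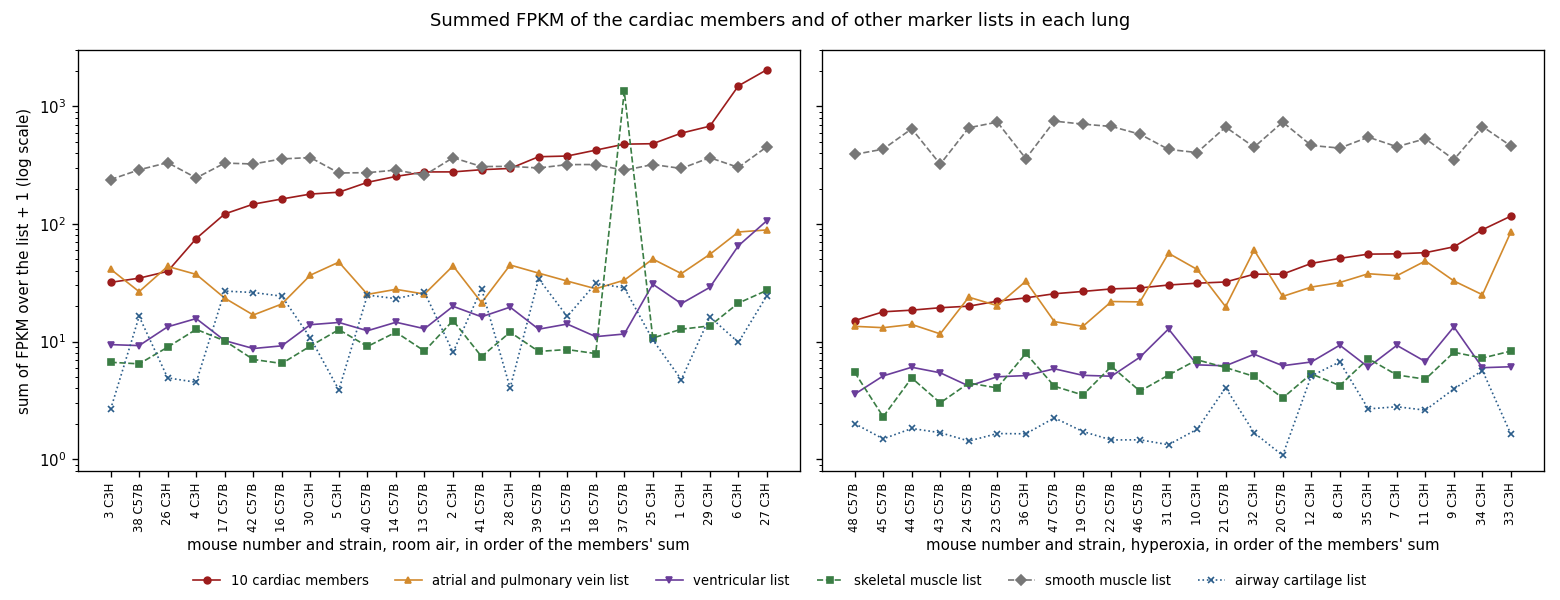
Summed FPKM plus 1 (log axis) of the members and of 5 other gene lists in each lung, with the 24 room-air lungs on the left and the 24 hyperoxia lungs on the right, each in order of the members' sum. The members' sums run from 30.9 to 2056 in room air and from 14.1 to 116 in hyperoxia, the skeletal muscle list rises to 1345 in mouse 37 alone, and smooth muscle stays within 238 to 454 in room air and 322 to 750 in hyperoxia.

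The genes most like the members were sought among 16984 genes by the Pearson correlation over 48 lungs between log2(FPKM + 1) and the mean of the members. The first 15 were Mb (0.978), Actn2 (0.972), Ckmt2 (0.964), Tcap (0.961), Myoz2 (0.958), Mybphl (0.958), Myl3 (0.951), Ldb3 (0.949), Tnnc1 (0.948), Eef1a2 (0.943), Pln (0.942), Fndc5 (0.942), Ckm (0.938), Dhrs7c (0.934) and Casq2 (0.934). Of these, 4 were on none of the lists, namely the translation elongation factor Eef1a2, the irisin precursor Fndc5, the muscle creatine kinase Ckm and Dhrs7c. Ckm was at 0.0742, 7.92 and 264 FPKM in room air and 0, 0.464 and 3.28 in hyperoxia. Without mice 27 and 6, the lungs farthest from the median, 14 of the 15 genes remained, and 13 remained when deviations from the group means were used. By Spearman correlation 10 remained, with Mybphl, Dhrs7c, Casq2, Fndc5 and Eef1a2 at ranks 16 to 23.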

How the data were processed

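Single pieces of lung from 48 mice were profiled by polyA RNA sequencing. Per the submitters' processing notes, GSNAP, SAMtools and Cufflinks were used with mm10, and the values deposited by the authors are FPKM from Cufflinks for each gene and mouse. How multiply mapped reads and strand were handled in counting is not given in the sources used here. Counts were not recovered from the FPKM, so the depth of each library is unknown and no intervals for counting error are given. Every gene on chromosomes X, Y or M is listed at 0 throughout. Akap5 was dropped, since its estimate had failed in 7 lungs. The series description gives ATG to all mice, and the saline groups rest on the sample labels.

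Linear models of log2(FPKM + 1) were made in limma 3.58.1 (R 4.3.3, trended eBayes). A gene entered a fit when 3 or more of its mice reached 1 FPKM, and p values were adjusted over all genes in the fit (Benjamini-Hochberg, threshold 0.05). Strain and sex used 12 saline room-air mice, air the 24 saline mice and injection the 24 room-air mice. The scripts were tested on simulated data. P values set differences between group means against the spread between mice of the same group. The members and gene lists were chosen with earlier results of these data known. Genes named were the members, the heart, sinus node and ventricular genes past a threshold, up to 4 genes of the highest mean level in each other list, and the 15 genes most like the members. A few further genes (such as Nebl, Nkx2-5, Irx4, Gm13054, Dnaaf3, the smooth muscle calls and genes high in mouse 37) were named after their values were seen. Alternatives were a pseudocount of 0.1, no filter, median ratio scaling, a fit of all 48 mice and leaving out mice. Figures were drawn with matplotlib 3.10.9, and sequences came from RefSeq and mm10 annotation from GENCODE M21.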

Additional observations from a re-analysis of the deposited data

Results flagged for a closer look

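Single lungs stood far from the other 5 of their strain, injection and air. Dixon's ratio is the gap between the extreme lung and its neighbour over the range of the group. It was past its 95% critical value in 25 of 80 groups of 6 lungs, and in 23 of these the extreme lung was high. The nominal 5% by chance holds for values with a normal distribution, whereas FPKM are skewed towards high values. The share over all genes was not computed, so that the count is not read as particular to the members. On log2(FPKM + 1) the ratio was past that critical value in 19 groups. The groups pool males and females, and the members move together, so that these are not independent events.

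In C3H SAL RA, mouse 27 was extreme in 7 members, with ratios of 0.628 for Myh6 (89.4 FPKM against 0.192 to 33.4), 0.815 for Myl4 (621 against 6.80 to 121), 0.764 for Sln (212 against 0 to 50.1), 0.63 for Tnni3 (200 against 0 to 74.1), 0.728 for Actc1 (300 against 11.8 to 90.3), 0.954 for Nppa (12.6 against 0 to 0.583) and 0.726 for Ryr2 (2.68 against 0.0113 to 0.742). In C3H ATG RA, mouse 6 was extreme in Sln (ratio 0.739, 166 against 5.47 to 47.3), in Nppa (ratio 1, 2.23 with the other 5 lungs listed at 0) and in Ttn (ratio 0.734, 1.13 against 0.0910 to 0.366).

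In C57B SAL RA, mouse 38 was low in Myl4 (ratio 0.648, 2.64 against 51.0 to 77.2), and mouse 37 was high in Nppa (0.902, 17.7 against 0 to 1.73) and in Ttn (0.919, 2.14 against 0.00815 to 0.182). In C57B ATG RA, mouse 18 was high in Nppa (0.912, 20.8 against 0 to 1.84).

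In hyperoxia, mouse 33 of C3H SAL HYP was extreme in Myh6 (ratio 0.646, 6.34 against 0.295 to 2.44), Tnnt2 (0.718, 24.0 against 2.64 to 8.68) and Nppa (0.81, 15.4 against 0 to 2.93). Mouse 34 of C3H ATG HYP was high in Sln (0.821, 7.23 against 0 to 1.29). Mouse 20 of C57B SAL HYP was high in Myh6 (0.862, 3.55 against 0.0254 to 0.512), Sln (0.804, 2.90 against 0 to 0.567) and Ttn (0.645, 0.127 against 0.00544 to 0.0486). In C57B ATG HYP, mouse 46 was high in Myh6 (0.789, 1.20 against 0.0471 to 0.289) and Nppa (0.74, 1.83 against 0 to 0.476), mouse 22 was high in Myl7 (0.707, 11.5 against 3.77 to 6.05), and mouse 48 was low in Actc1 (0.759, 0.972 against 5.75 to 7.27).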

How the results depend on the processing

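The number of members called stayed at 0 for strain, sex and ATG under every alternative run, and was 7 for hyperoxia, or 8 with no filter, though nothing is read from these counts for the conditions that chose the members. Calls among the other heart genes in hyperoxia were between 20 (without mice 27 and 37, an alternative chosen after seeing the data) and 25. For strain their number was 1, 2 after median ratio scaling, and between 0 and 2 when 1 mouse was left out. For sex it was 0, 2 in a fit of all 48 mice, both lower in males, and between 0 and 4 when 1 mouse was left out, with 4 without mouse 2 (C3HM SAL RA). The sex differences of members turned sign when 1 mouse was left out, with ranges of -1.23 to 0.22 for Myh6, -0.64 to 1.18 for Myl7, -0.80 to 0.75 for Myl4, -1.11 to 0.86 for Sln, -1.02 to 0.90 for Tnni3 and -0.70 to 0.67 for Tnnt2, and were 0.57 for Myh6 and 0.072 for Actc1 without mice 27 and 37. The cause was not tested. Over all genes, calls for sex ran from 20 to 3640 when 1 mouse was left out and for strain from 1306 to 4021, and median ratio scaling moved the median sex difference of all genes from -0.12 to -0.01. The call of Gja5 for strain was lost in 6 of 17 alternatives. The members' between-group share was 55.1% to 59.1% under the alternatives, and 55.2% to 67.6% when 1 mouse was left out.

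No paired analysis was possible because each mouse has its own number. Levels under 1 FPKM (Ryr2, Ttn and most values of Nppa) are imprecise at an unknown depth.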
